A study of Mus musculus with 12 samples.

Results

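Idh2 encodes the mitochondrial NADP-dependent isocitrate dehydrogenase. It was examined with 7 genes of the citric acid cycle, Cs, Idh3a, Idh3b, Ogdh, Suclg1, Fh1 and Mdh2, and with Me3, the mitochondrial NADP-dependent malic enzyme, which draws malate from the cycle. These 9 genes were chosen by name, because the Idh2 signal was already known to be low in 1 of the 4 groups, and each was represented by its brightest probe set, that is, the array feature with the highest mean signal. They have 19 probe sets and make up 9 of the 11345 genes tested.

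The RNA came from the muscle of 12 mice, all 16 weeks old and on a mixed 129/Sv and C57BL/6 background. GPR120, encoded by Ffar4, is a receptor for long-chain fatty acids. There were 3 GPR120 knockout mice on a high fat diet (KO HFD), 3 GPR120 knockout mice on a normal diet (KO ND), 3 wild-type mice on a high fat diet (WT HFD) and 3 wild-type mice on a normal diet (WT ND). Each mouse was measured on its own array, and values are log2 signals. The muscle site, the sex, the length of feeding and the form of the knockout allele could not be found in the sources used here. Mouse numbers cover a separate range in each group, so a group and a cohort cannot be told apart.

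In the citric acid cycle, citrate synthase joins acetyl-CoA to oxaloacetate, and the following enzymes oxidise the product stepwise back to oxaloacetate while passing electrons to NAD and to the respiratory chain. The NAD-dependent isocitrate dehydrogenase (subunits Idh3a, Idh3b and Idh3g) catalyses the step of the cycle proper. Idh2 carries out the same chemistry with NADP, and the NADPH it makes feeds the glutathione and thioredoxin systems of mitochondria. Muscle has a high content of these enzymes, and more in oxidative than in glycolytic fibres.

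Promoter windows from RefSeq on GRCm38.p6, which run from 250 bases before to 50 bases after a start given for the gene, were found for 8 of the 9 genes, with none for Idh3a. For Idh2 and Me3 that start lies inside the gene's span, chr7:80094845-80118608 and chr7:89632284-89854359. The windows of these 2 genes are thus not at the outer end of the gene. The windows of Idh2, of Suclg1 and Fh1, whose signals followed that of Idh2 most closely among the 9, and of Me3, which followed another pattern, are printed 5′ to 3′ on the gene's strand. Capitals mark a CCAAT box on either strand, read CCAAT or, from the other strand, ATTGG. Idh2 lies on the minus strand at chr7:80115301-80115600, Suclg1 on the plus strand at chr6:73248255-73248554, Fh1 on the minus strand at chr1:175625586-175625885 and Me3 on the plus strand at chr7:89632568-89632867.
Idh2: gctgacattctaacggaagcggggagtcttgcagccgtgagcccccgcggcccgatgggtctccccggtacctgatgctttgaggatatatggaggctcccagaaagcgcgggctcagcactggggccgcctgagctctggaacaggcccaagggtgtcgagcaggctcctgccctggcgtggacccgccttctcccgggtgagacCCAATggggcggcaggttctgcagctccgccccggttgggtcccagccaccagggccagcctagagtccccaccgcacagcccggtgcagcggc
Suclg1: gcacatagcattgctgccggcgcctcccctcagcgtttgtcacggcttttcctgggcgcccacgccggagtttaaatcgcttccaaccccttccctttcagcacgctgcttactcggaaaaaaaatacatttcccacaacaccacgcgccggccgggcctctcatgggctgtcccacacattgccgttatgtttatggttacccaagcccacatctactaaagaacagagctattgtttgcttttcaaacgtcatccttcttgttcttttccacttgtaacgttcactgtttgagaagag
Fh1: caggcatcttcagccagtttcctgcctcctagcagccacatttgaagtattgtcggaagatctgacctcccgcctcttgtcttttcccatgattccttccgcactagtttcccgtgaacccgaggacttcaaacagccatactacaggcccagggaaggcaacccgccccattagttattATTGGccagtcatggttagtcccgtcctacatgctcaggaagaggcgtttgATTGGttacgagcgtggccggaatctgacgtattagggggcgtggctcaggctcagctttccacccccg
Me3: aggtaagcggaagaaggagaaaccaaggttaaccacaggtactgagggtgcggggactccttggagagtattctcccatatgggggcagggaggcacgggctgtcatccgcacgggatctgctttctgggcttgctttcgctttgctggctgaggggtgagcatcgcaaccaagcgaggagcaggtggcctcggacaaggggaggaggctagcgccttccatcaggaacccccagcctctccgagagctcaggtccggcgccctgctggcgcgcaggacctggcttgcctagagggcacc

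The Idh2 window had a GC content of 68.3%, against a median of 52.7% over 32851 windows. A CCAAT box was present in 5 of the 8 genes (Cs, Idh2, Idh3b, Ogdh and Fh1), and in 41.1% of 27025 genes with a window. The ETS site bound by Gabpa (CCGGAAG) was in 1 of the 8, Idh3b, and in 9.93% of all genes. The Esrra element (TNAAGGTCA), the palindromic Nrf1 site and the TATA box (TATAAA) were in 0 of the 8, and in 1.43%, 1.07% and 15.7% of all genes. All were searched on both strands, and no motif lies within another. Suclg1 and Me3 held none of the 5 motifs in these windows, so Suclg1 shared no searched motif with Idh2, while Fh1 shared the CCAAT box.

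On normal diet the Idh2 signal was low in wild type alone. It read 9.89, 9.91 and 9.88 in KO HFD and 9.78, 9.93 and 9.75 in KO ND. In WT HFD it was 9.74, 9.87 and 10.09, against 8.84, 8.94 and 9.06 in WT ND. All 9 other arrays lay above every WT ND array, with 0.68 between the lowest of them and the highest WT ND array. The group means were 9.89 ± 0.01 in KO HFD, 9.82 ± 0.10 in KO ND, 9.90 ± 0.17 in WT HFD and 8.95 ± 0.11 in WT ND (SD, n = 3). The first 3 of these means lay within 1 SD of WT HFD of each other, and only WT ND stood apart. WT HFD exceeded WT ND by 0.95 (1.94-fold) and KO ND exceeded WT ND by 0.87 (1.83-fold), each with an SE of 0.10. These values led to the choice of the genes, so they are a description and carry no test.

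The same ordering, with all 3 WT ND arrays below all 9 others, was found in 5 of the 9 genes, Cs, Idh2, Ogdh, Suclg1 and Fh1, and in 3.13% of the 11345 genes tested. The count is likewise a description, because the genes were picked with the WT ND values known. By the width of the gap Idh2 ranked 6 among all genes, while Ogdh ranked 177, Fh1 182, Suclg1 213 and Cs 333. By the difference between the mean of the 9 other arrays and the WT ND mean, Idh2 stood at 0.92 (1.90-fold, rank 184). The other 4 had differences of 0.17 to 0.25, and thus shared the direction and ordering but not the size. With every array centred on its own median, the ordering was left in 1 of the 9, Idh2, and in 1.79% of all genes.

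**Figure D1:**
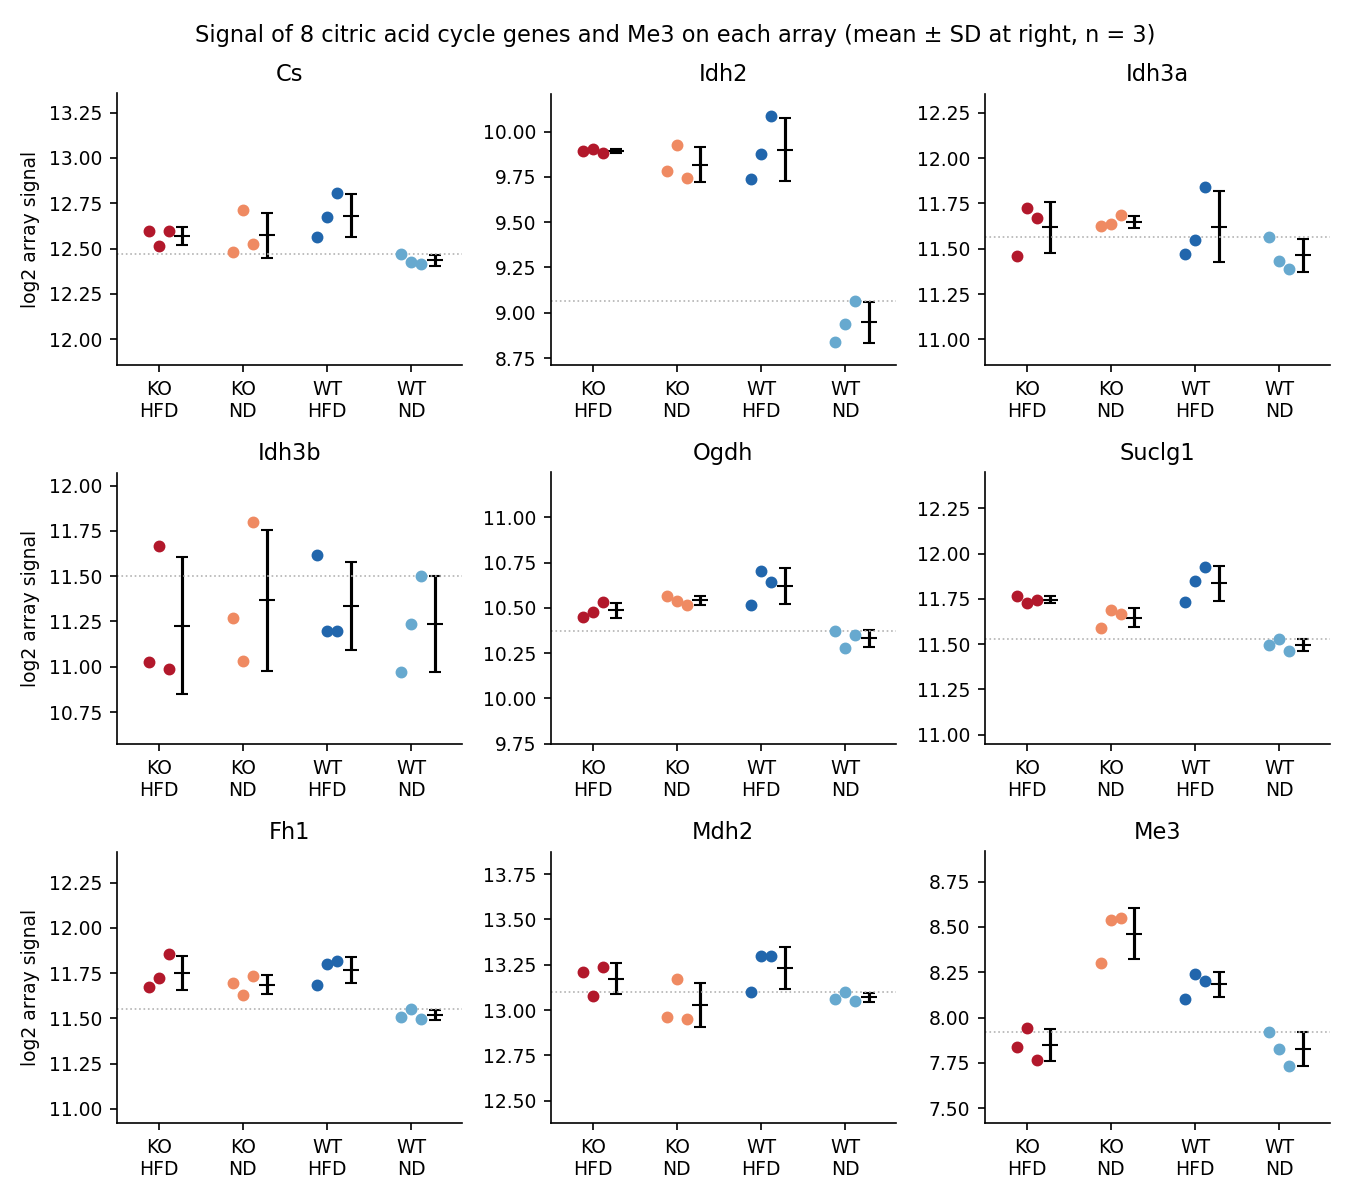
Log2 array signal (vertical axes, 1.5 log2 units each) of the 9 genes on every array, by group, with the group mean and SD (n = 3) at the right of the points. The dotted line marks the highest WT ND array. Idh2 has all 9 other arrays 0.68 or more above it, while Cs, Ogdh, Suclg1 and Fh1 clear it by 0.01 to 0.08.

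Suclg1 encodes the alpha subunit of succinyl-CoA ligase, which releases CoA and forms ATP or GTP. Its signal was 11.77, 11.73 and 11.74 in KO HFD, 11.59, 11.69 and 11.66 in KO ND, and 11.73, 11.85 and 11.93 in WT HFD, against 11.49, 11.53 and 11.46 in WT ND. The 9 other arrays exceeded WT ND by 0.25 on average (1.19-fold). The WT ND arrays were the lowest, and the KO ND arrays were the next lowest group.

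Fh1, fumarate hydratase, adds water to fumarate to make malate. Its signal was 11.67, 11.72 and 11.85 in KO HFD, 11.69, 11.63 and 11.74 in KO ND, and 11.68, 11.80 and 11.82 in WT HFD, against 11.51, 11.55 and 11.50 in WT ND. All 3 other groups overlapped one another and none overlapped WT ND. The mean difference was 0.22 (1.16-fold).

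Ogdh is the first component of the alpha-ketoglutarate dehydrogenase complex. It read 10.45, 10.48 and 10.53 in KO HFD, 10.57, 10.54 and 10.52 in KO ND, and 10.51, 10.70 and 10.65 in WT HFD, against 10.37, 10.28 and 10.35 in WT ND. The WT ND arrays lay below the rest by at least 0.08, and the mean difference was 0.22 (1.16-fold).

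Cs, citrate synthase, was the gene just inside the ordering. Its signal was 12.60, 12.51 and 12.59 in KO HFD, 12.48, 12.71 and 12.53 in KO ND, and 12.57, 12.67 and 12.81 in WT HFD, against 12.47, 12.42 and 12.41 in WT ND. The lowest KO ND array and the highest WT ND array differed by only 0.008, so the ordering of Cs rests on 1 array of each group.

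Idh3a, the catalytic alpha subunit of the NAD-dependent isocitrate dehydrogenase, was the gene just outside the ordering. It read 11.46, 11.72 and 11.67 in KO HFD, 11.62, 11.64 and 11.68 in KO ND, and 11.47, 11.55 and 11.84 in WT HFD, against 11.57, 11.43 and 11.39 in WT ND. A single WT ND array overlapped the others, by 0.11, and the mean difference was 0.16. Leaving out that array (WT ND replicate 1) put Idh3a inside, so that 6 of the 9 genes had the ordering, with 8.57% of all genes.

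Idh3b, a regulatory subunit of the same enzyme, showed the widest spread of the 9 genes. It read 11.03, 11.66 and 10.99 in KO HFD, 11.27, 11.03 and 11.80 in KO ND, and 11.62, 11.20 and 11.19 in WT HFD, against 10.97, 11.23 and 11.50 in WT ND. High and low arrays occurred in every group, and the mean difference of 0.07 was smaller than each group's SD of 0.24 to 0.39.

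Mdh2 is the mitochondrial malate dehydrogenase, which regenerates oxaloacetate. Its brighter probe set gave 13.21, 13.08 and 13.24 in KO HFD, 12.96, 13.17 and 12.95 in KO ND, and 13.10, 13.30 and 13.30 in WT HFD, against 13.06, 13.10 and 13.05 in WT ND. Here KO ND and WT ND overlapped, with means of 13.03 ± 0.12 and 13.07 ± 0.03 (SD, n = 3). The difference of KO ND from WT ND was -0.04, the only negative one among the 9 genes.

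The probe sets of a gene did not always give the same picture. The dimmer Idh2 probe set read 4.96, 5.54 and 5.35 in KO HFD, 4.47, 5.14 and 5.05 in KO ND, and 5.10, 5.14 and 6.07 in WT HFD, against 4.93, 4.99 and 4.81 in WT ND. On it the groups overlapped, and KO ND differed from WT ND by -0.02. The low WT ND signal of Idh2 was thus seen on 1 of its 2 probe sets. The dimmer Mdh2 probe set behaved the other way. It gave 12.81, 12.78 and 12.90 in KO HFD, 12.75, 12.80 and 12.73 in KO ND, and 12.77, 13.03 and 13.14 in WT HFD, against 12.66, 12.56 and 12.58 in WT ND, so all WT ND arrays were below the rest by at least 0.07. Further probe sets of Cs (2), Idh3a (3), Idh3b (2) and Ogdh (1) did not have the ordering, while Suclg1, Fh1 and Me3 have 1 probe set each. When the probe sets of a gene were averaged, Idh2, Suclg1 and Fh1 kept the ordering, 3 of the 9 against 2.72% of all genes, and the Idh2 difference was 0.61.

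**Figure D2:**
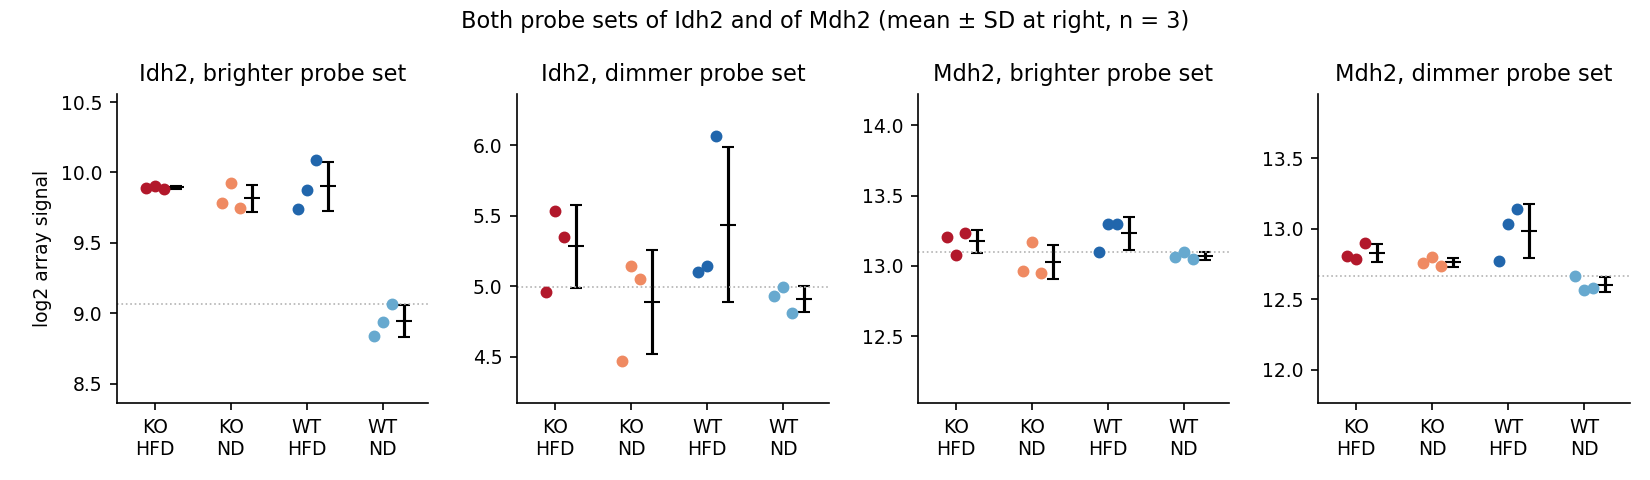
Log2 array signal (vertical axes) of both probe sets of Idh2 and of Mdh2 on each array, by group, with mean and SD (n = 3) and a dotted line at the highest WT ND array. The WT ND arrays are below the other 9 on the brighter Idh2 and the dimmer Mdh2 probe set, and overlap them on the other probe set of each gene.

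**Figure D3:**
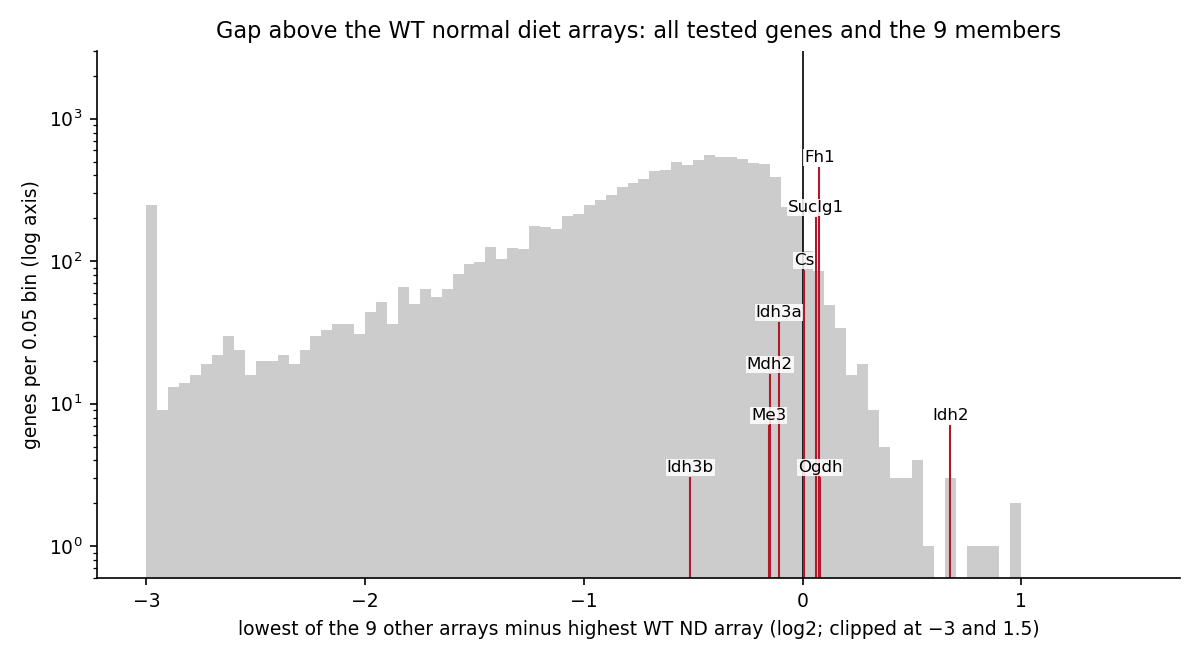
Number of tested genes (vertical log axis) by the gap between the lowest of the 9 other arrays and the highest WT ND array (horizontal axis, log2). Red lines place the 9 genes. Idh2 lies at 0.68, Cs, Suclg1, Fh1 and Ogdh lie just above 0, and the remaining 4 lie below 0.

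Me3 did not share the ordering of Idh2 but had one of its own. It read 7.84, 7.94 and 7.76 in KO HFD and 8.30, 8.54 and 8.55 in KO ND. In WT HFD it was 8.10, 8.24 and 8.20, against 7.92, 7.83 and 7.73 in WT ND. The KO ND arrays were above all 9 others, as in 0.855% of all genes, whereas KO HFD and WT ND overlapped. Group means were 7.85 ± 0.09 in KO HFD, 8.46 ± 0.14 in KO ND, 8.18 ± 0.07 in WT HFD and 7.83 ± 0.09 in WT ND (SD, n = 3). Me3 was the only 1 of the 9 genes in which the diet groups were apart in both genotypes and in opposite directions, KO HFD below KO ND and WT HFD above WT ND, as in 0.784% of all genes.

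Differences from WT ND over the 9 genes can be given side by side, with the caution that both share the WT ND arrays. WT HFD exceeded WT ND in 9 of 9 genes, with a median difference of 0.25, against 0.04 over all genes. KO ND exceeded WT ND in 8 of 9, with a median of 0.17, against 0.02 over all genes. Apart from Idh2, the larger differences of WT HFD were those of Me3 (0.36, SE 0.11), Suclg1 (0.34, SE 0.07) and Ogdh (0.29, SE 0.08). Those of KO ND were Me3 (0.64, SE 0.11), Ogdh (0.21, SE 0.08) and Idh3a (0.18, SE 0.10).

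The comparisons that leave out WT ND could be tested. The first asks what the diet did in the knockout. With limma's moderated test over all 12 arrays and Benjamini-Hochberg adjustment over 11345 genes, 1 of the 9 genes passed an adjusted p of 0.05 between KO HFD and KO ND, against 4.54% of all genes (1.88% lower). Me3 fell, with a log2 difference of -0.62 (SE 0.11, 95% interval -0.86 to -0.38, limma adjusted p = 0.00877), that is, to 0.653 of its KO ND signal. Without KO ND replicate 2 the difference was -0.58 and missed the threshold (limma adjusted p = 0.0540). Centring each array on its median shifted all genes by 0.12 in this comparison, and Me3 was then -0.73 (limma adjusted p = 0.012).

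The other 8 genes did not pass between KO HFD and KO ND. Idh2 differed by 0.08, with a 95% interval of -0.15 to 0.30 (limma adjusted p = 0.738). Mdh2 had the largest positive difference, 0.15 (interval -0.02 to 0.32, limma adjusted p = 0.332), and Suclg1 followed at 0.10 (interval -0.05 to 0.25, limma adjusted p = 0.464). For Idh3b, whose replicates varied most, the interval was wide, -0.60 to 0.32. The median over the 9 genes was -0.004, against 0.05 over all genes. The difference in the diet effect between genotypes uses WT ND and was not tested for these genes.

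The second tested comparison asks how the genotypes differed on high fat diet. Between KO HFD and WT HFD, 0 of the 9 genes passed limma's adjusted p of 0.05, against 0.732% of all genes, and 1 of the 9 had an unadjusted p under 0.05. That gene was Me3, at -0.34 (SE 0.11, 95% interval -0.57 to -0.10, limma unadjusted p = 0.00972, adjusted p = 0.169). All 9 differences were negative, with a median of -0.09 against 0.03 over all genes, of which 53.9% were positive. Related lists shared this direction. Of 9 other cycle genes 1 was positive (median -0.09), and of 12 general mitochondrial content genes 1 was positive (median -0.12). Ogdh had -0.13 (interval -0.30 to 0.03) and Cs -0.11 (interval -0.28 to 0.06). Idh2 differed by -0.01, with an interval of -0.23 to 0.22 (limma adjusted p = 0.984). Of the 9 signs, those of Idh2, Idh3a, Idh3b and Fh1 turned under at least 1 alternative processing. Markers of other cells moved in the same comparison. By limma 3 of 6 fibroblast markers (Col1a1, Col3a1 and Postn) and 2 of 7 macrophage markers (Lgals3 and Cd68) were higher in KO HFD, and 0 of 7 adipocyte markers passed, with 5 at an unadjusted p under 0.05 and all 7 differences positive (median 0.85). The summed fibroblast markers were 13.34 to 13.78 in KO HFD, against 12.66 to 13.16 in WT HFD, the macrophage markers 11.97 to 12.85, against 10.89 to 11.98 in WT HFD, and the adipocyte markers 13.94 to 14.09, against 13.09 to 13.93 in WT HFD. Their part in the 9 differences was not tested.

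**Figure D4:**
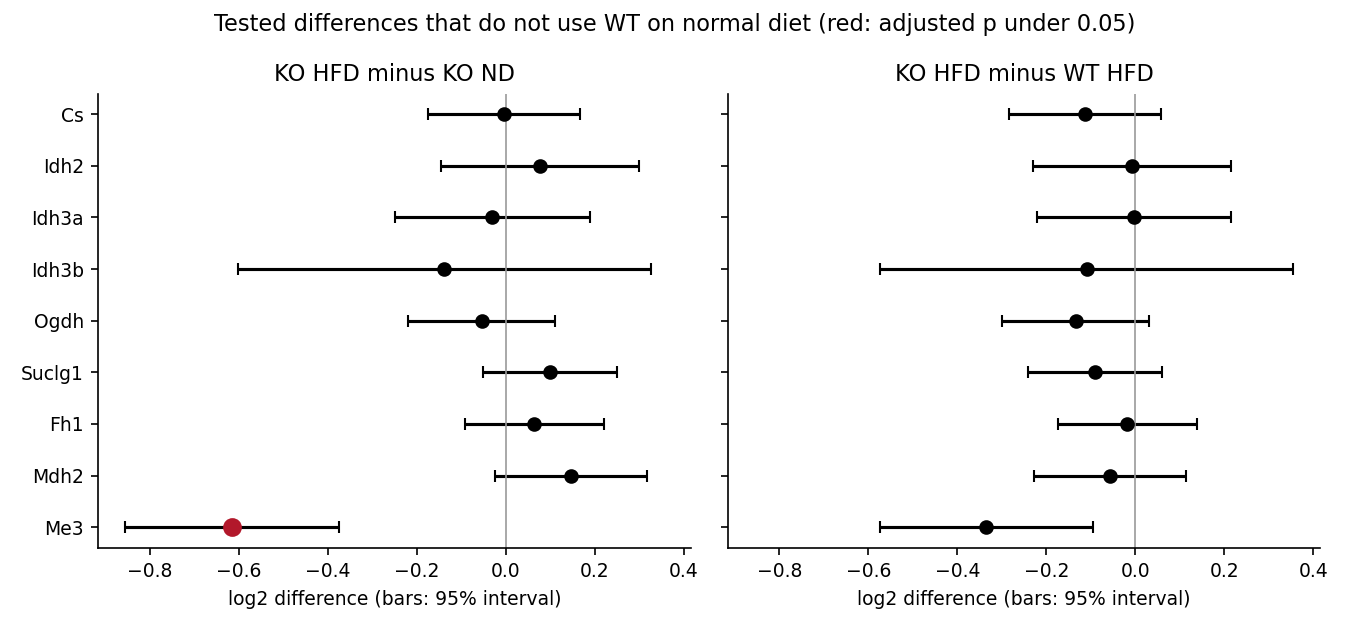
Log2 differences (horizontal axes) of the 9 genes with 95% intervals from limma, for KO HFD minus KO ND at the left and KO HFD minus WT HFD at the right. Red marks an adjusted p under 0.05, reached by Me3 at -0.62 in the left panel alone.

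Over the 12 arrays the signals of Suclg1, Fh1 and Ogdh followed Idh2 closely, with Pearson correlations of 0.86, 0.85 and 0.82, at ranks 35, 48 and 88 of 11344 genes. Cs reached 0.75, Idh3a 0.60, Me3 0.47, Mdh2 0.42 and Idh3b 0.06. These correlations carry the group difference that chose the genes. After the group means were subtracted, those with Idh2 were 0.68 for Cs, 0.64 for Suclg1, 0.58 for Mdh2, 0.38 for Idh3a, 0.33 for Ogdh, 0.15 for Fh1, 0.03 for Me3 and -0.21 for Idh3b, so Fh1 and Ogdh followed Idh2 between groups more than within them. Within groups the closest pair was Cs and Mdh2 at 0.87, then Cs and Suclg1 at 0.84. All arrays share scaling and labelling, and n is 12 throughout.

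The 6 genes most like Idh2 over the 12 arrays were Capn3 (r = 0.94), Rbbp7, Ndufaf1, Aldh5a1, Plbd1 and Rcor3 (r = 0.92 to 0.93), out of 11344. Every WT ND array lay below the 9 others in all 6, an ordering that the selection by likeness to Idh2 largely fixes. Capn3, a muscle calpain, ranged over 10.15 to 10.56 on the other 9 arrays, against 9.34 ± 0.05 in WT ND (SD, n = 3). Ndufaf1, an assembly factor of respiratory complex I, ranged over 9.14 to 9.36, against 8.93 ± 0.04 in WT ND. Aldh5a1, the mitochondrial succinate semialdehyde dehydrogenase, whose product succinate enters the cycle, ranged over 5.52 to 6.08, against 4.82 ± 0.25 in WT ND. The lowest correlations were those of Vamp7 and Tmem87a (both -0.96) and Slc35f5 (-0.92), and Vamp7 ranged over 8.42 to 8.75 on the other 9 arrays, against 9.44 ± 0.06 in WT ND. Tmem87a ranged over 4.88 to 5.86 on the other 9 arrays, against 8.26 ± 0.05 in WT ND. Capn3, Ndufaf1 and Tmem87a lie on chromosome 2, Rcor3 and Slc35f5 on chromosome 1, and Rbbp7 and Vamp7 on chromosome X. The part of chromosomal position in these likenesses was not tested. Among the 20 tested genes nearest to Idh2 on chromosome 7, 1 had the low WT ND ordering, Man2a2.

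Another 9 cycle genes were tested, Idh3g, Dlst, Dld, Suclg2, Sucla2, Sdha, Sdhb, Sdhc and Sdhd. This list and those below were drawn up with earlier results of these data known, which limits their tests against WT ND. In WT HFD against WT ND, 2 of these 9 rose and 0 fell by limma, against 6.06% of all genes in either direction and 3.07% higher. Sdhb, the iron-sulfur subunit of succinate dehydrogenase, was higher by 0.34 (SE 0.08, limma adjusted p = 0.0236), and Idh3g, the gamma subunit of the NAD-dependent isocitrate dehydrogenase, by 0.29 (SE 0.07, limma adjusted p = 0.0284). All 9 differences were positive, with a median of 0.27. An unadjusted p under 0.05 was reached by 7 of the 9 by limma, but the share of all genes at this level was not counted. The count past the adjusted threshold was 0 under median centring and without WT ND replicate 2 or 3 or WT HFD replicate 2 or 3, and was 4 without WT ND replicate 1. By limma 0 of the 9 passed in KO ND against WT ND, against 0.414% of all genes, with a median of 0.14 and 2 at an unadjusted p under 0.05. None (0 of 9) passed in KO HFD against KO ND, against 4.54% of all genes, and 0 had an unadjusted p under 0.05. The median there was 0.05, as over all genes. In KO HFD against WT HFD 0 of the 9 passed, against 0.732% of all genes, and 2, both lower, had an unadjusted p under 0.05. The median there was -0.09, against 0.03 over all genes. The low WT ND ordering was present in 2 of the 9, Suclg2 (9.14 to 9.37 on the other arrays, against 8.82 to 9.06 in WT ND) and Sdhc, against 3.13% of all genes.

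Pyruvate enters the cycle through pyruvate dehydrogenase, which kinases switch off and phosphatases switch on. Of 11 tested genes of this entry, Pdp1, a catalytic subunit of the phosphatase, rose with the diet in both genotypes. It read 8.74, 8.74 and 9.10 in KO HFD, against 8.06, 7.70 and 7.78 in KO ND, a difference of 1.02 (SE 0.17, limma adjusted p = 0.00493). It read 9.06, 8.58 and 8.55 in WT HFD, against 8.02, 7.61 and 7.83 in WT ND, a difference of 0.91 (SE 0.17, limma adjusted p = 0.00845). Unlike Idh2, Pdp1 was thus high on high fat diet and low on normal diet in either genotype. The other 10 did not pass in either comparison, and Pdk4, the kinase induced in fasting muscle, differed by -0.32 in the knockout (limma adjusted p = 0.0525). Of all genes, 4.54% passed in the knockout and 6.06% in wild type, in either direction. The low WT ND ordering was found in 0 of the 11, against 3.13% of all genes.

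Partner enzymes outside the cycle numbered 15 tested genes, among them Idh1, Mdh1, Me1 and the transaminases. Got2, the mitochondrial aspartate transaminase, was the only 1 of the 15 past the threshold, higher by 0.32 in WT HFD than in WT ND (SE 0.09, limma adjusted p = 0.0465). In that comparison 3.07% of all genes rose and 6.06% passed in either direction. Nnt, the transhydrogenase that makes mitochondrial NADPH, was the 1 of the 15 with the low WT ND ordering (3.13% of all genes). It read 10.40, 10.79 and 10.70 in KO HFD, 10.79, 10.58 and 10.79 in KO ND, and 10.88, 10.37 and 10.33 in WT HFD, against 9.65 to 10.20 in WT ND. Its difference of 0.58 in WT HFD against WT ND did not pass (limma adjusted p = 0.0552). Of 5 mitochondrial carriers, Slc25a10, which exchanges malate and succinate for phosphate, rose in KO HFD, by 0.79 against KO ND (SE 0.18, limma adjusted p = 0.0305) and by 0.97 against WT HFD (SE 0.18, limma adjusted p = 0.0320). In these comparisons 4.54% and 0.732% of all genes passed in either direction.

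Of 9 genes of a mitochondrial redox list, not all of them linked to NADPH, 2 rose in WT HFD against WT ND, where 3.07% of all genes rose. They were Gpx4, a glutathione peroxidase, by 0.41 (SE 0.07, limma adjusted p = 0.00601) and Sod2, the mitochondrial superoxide dismutase, by 0.39 (SE 0.10, limma adjusted p = 0.0392). Gpx4 was the 1 of the 9 with the low WT ND ordering, which 3.13% of all genes had. In WT HFD against WT ND 5 of the 9 differences were positive (median 0.07, lowest -0.56). Of 10 regulators of mitochondrial genes 2 rose in WT HFD against WT ND, the coactivators Ppargc1a (0.87, limma adjusted p = 0.0354) and Ppargc1b (0.83, limma adjusted p = 0.0411). The 10 did not move together there, as 6 differences were positive (median 0.10, lowest -0.67). Ppargc1b also rose in KO HFD against KO ND (0.90, limma adjusted p = 0.0374), where 4.54% of all genes passed in either direction. Ppargc1a differed by -0.38 between these groups and did not pass (limma adjusted p = 0.362). Ppargc1b was also the 1 of the 10 with the low WT ND ordering. Of 12 general mitochondrial content genes, 0 passed by limma in WT HFD against WT ND, with a median difference of 0.18 and 5, all higher, at an unadjusted p under 0.05. The low WT ND ordering was present in 0 of the 12.

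**Figure D5:**
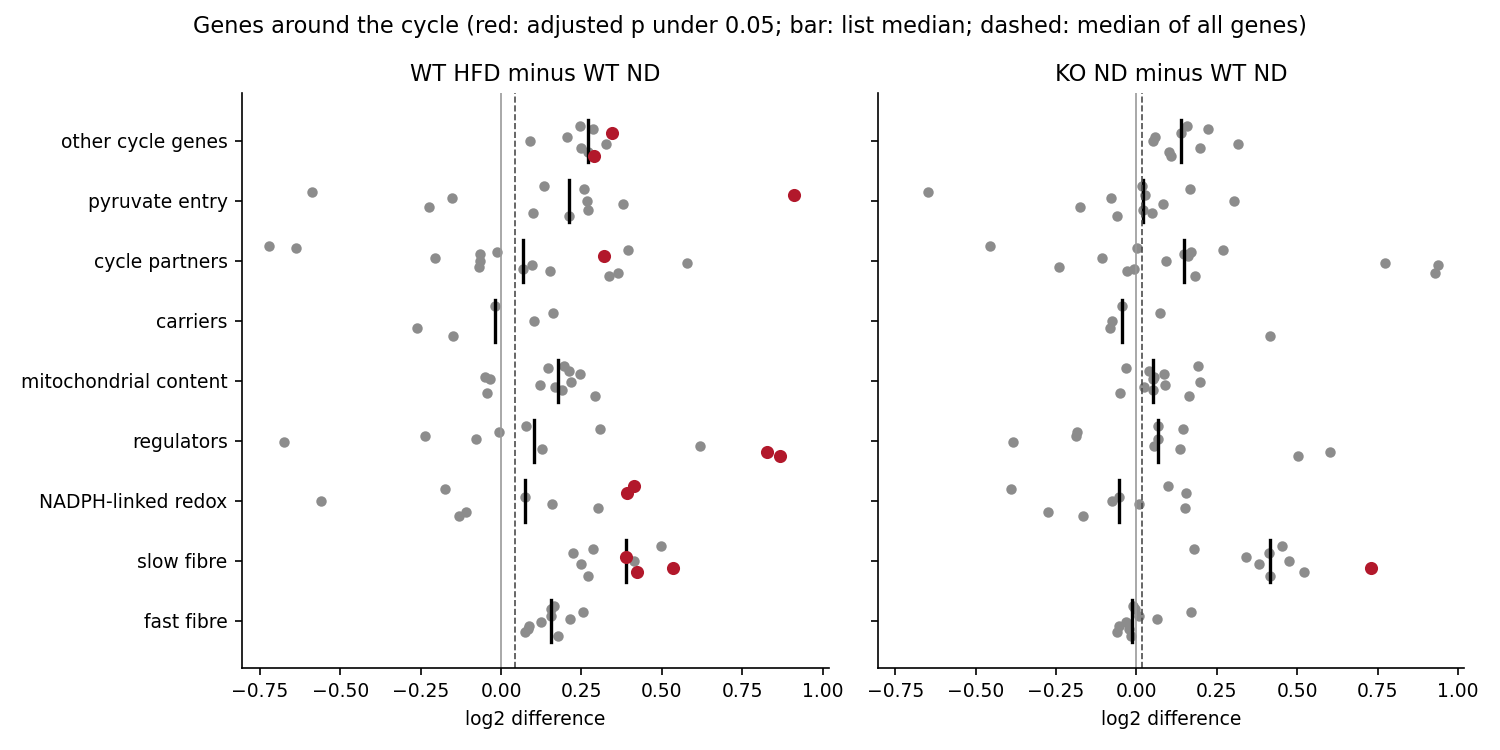
Log2 differences (horizontal axes) of the tested genes of 9 lists for WT HFD minus WT ND at the left and KO ND minus WT ND at the right, 1 point per gene. Red marks an adjusted p under 0.05, the bar is the list's median and the dashed line the median of all genes. All 9 other cycle genes and all 9 slow fibre genes lie right of the dashed line in both panels.

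The skeletal muscle markers were detected for 11 of 11 genes, with 0 of them past limma's threshold in WT HFD against WT ND (3 at an unadjusted p under 0.05). All 11 differences were positive there, with a median of 0.16, and 0 of the 11 had the low WT ND ordering. Of 6 heart muscle markers, 4 were below the signal filter. Of 6 brown fat markers, Ucp1 and Elovl3 were below the filter, and 2 of the 4 tested rose in WT HFD against WT ND by limma, Cidea (1.34, adjusted p = 0.0300) and Cox8b (0.29, adjusted p = 0.0258), against 3.07% of all genes. Muscle also expresses Cox8b. The summed level of the 4 was 13.45 to 13.57 in KO HFD, 13.42 to 13.56 in KO ND and 13.66 to 13.76 in WT HFD, against 13.47 to 13.49 in WT ND, and 0 of the 4 had the low WT ND ordering. Of 6 endothelial markers 1, Kdr, rose in WT HFD against WT ND (1.24, limma adjusted p = 0.0308), against 3.07% of all genes. Kdr was also the 1 of the 6 with the low WT ND ordering. The 6 did not move together, as 3 differences were positive (median 0.01, lowest -0.53). By limma 4 of the 6 had an unadjusted p under 0.05, and 2 of these 4 were higher. Of 7 macrophage markers, 0 differences were positive in KO ND against WT ND (median -0.59). By limma 0 of the 7 passed there, against 0.414% of all genes, and 5 had an unadjusted p under 0.05. The summed macrophage markers were 11.21 to 11.69 in KO ND and 10.89 to 11.98 in WT HFD, against 11.73 to 11.90 in WT ND. The part of these cell types in the differences from WT ND was not tested.

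The summed level of the slow fibre markers was lowest in WT ND. It was 14.52 to 14.89 in KO HFD, 14.54 to 14.69 in KO ND and 14.46 to 14.64 in WT HFD, against 13.96 to 14.30 in WT ND, and 5 of the 9 markers (Myl2, Myl3, Tnni1, Tnnc1 and Casq2) had the low WT ND ordering, against 3.13% of all genes. By limma 3 of the 9 rose in WT HFD against WT ND (Myl3 0.53, Myl2 0.42, Tnnc1 0.39), against 3.07% of all genes, and 6 did not pass. In KO ND against WT ND 1, Myl3 (0.73), rose and 8 did not pass, against 0.414% of all genes in either direction. All 9 slow fibre differences were positive in both comparisons, with medians of 0.39 and 0.42. By limma 7 and 8 of the 9 had an unadjusted p under 0.05. Fast fibre markers had 0 of 10 past limma's threshold in either comparison, with 3 and 1 at an unadjusted p under 0.05. All 10 of their differences were positive in WT HFD against WT ND, with a median of 0.16. In KO ND against WT ND 3 of the 10 were positive, with a median of -0.01. The low WT ND ordering was present in 1 of the 10. In bulk tissue, fewer cells or fibres of a kind and less RNA per cell cannot be told apart, and the part of the fibre makeup in the Idh2 pattern was not tested.

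A sign of RNA quality, the log2 of 3′ over 5′ signal for the array's control transcripts, was on average 0.16 ± 0.13 in KO HFD, 0.07 ± 0.06 in KO ND, 0.18 ± 0.02 in WT HFD and -0.02 ± 0.09 in WT ND (SD, n = 3). Over the 12 arrays its correlation was 0.76 with Suclg1, 0.66 with Idh2, 0.51 with Cs and Fh1, 0.44 with Mdh2 and 0.42 with Ogdh. It was 0.20 with Me3, 0.16 with Idh3b and 0.15 with Idh3a. Its part in the low WT ND signals was not tested. Beside the fall of Me3 in KO HFD against KO ND, the summed adipocyte markers were 13.94 to 14.09 in KO HFD, against 12.81 to 13.47 in KO ND, and the summed macrophage markers were 11.97 to 12.85 in KO HFD, against 11.21 to 11.69 in KO ND. The summed fibroblast markers were 13.34 to 13.78 in KO HFD, against 13.00 to 13.08 in KO ND. Of 6 fibroblast markers 3 rose (Col1a1, Col3a1 and Postn), of 7 macrophage markers 3 rose (Lgals3, Adgre1 and Lyz2), of 7 adipocyte markers 1 rose, Fabp4, and of 6 endothelial markers 1 fell, Flt1, where 4.54% of all genes passed in either direction. Of the 6 endothelial differences 3 were positive (median 0.17). By limma 3 of the 6 had an unadjusted p under 0.05, and 2 of these 3 were higher. The part of all these markers in the Me3 result was not tested either. Ffar4 itself was below the filter, at 2.31 ± 1.18 in KO HFD, 2.48 ± 1.89 in KO ND, 1.41 ± 0.93 in WT HFD and 0.23 ± 1.86 in WT ND, and could not check the genotype labels.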

How the data were processed

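Muscle RNA of 12 mice, 3 in each of 4 groups, was labelled with biotin and hybridised to 1 Affymetrix array per mouse, per the labels' protocols. The authors deposited log2 signals, and MAS5 is the tool named per the submitters' processing notes. The signals were used without rescaling. The MAS5 version and the array's genome build could not be found in the sources used here. Array medians lay between 3.87 and 4.16, and precision is limited by having 3 arrays per group.

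Of 45101 probe sets, 64 controls were left out. Of the other 45037, 34945 carried 1 gene symbol in the platform annotation, 932 several and 9160 none. Probe sets with a mean log2 value above 3.78 (13.8 on the linear scale), the median, were kept (22518), and the brightest per symbol stood for its gene, which gave 11345 genes. All 9 genes described passed. limma 3.58.1 in R 4.3.3 fitted 1 model to all 12 arrays with 1 mean per group. Variances were moderated towards an intensity trend, with 5.42 prior and 8 residual degrees of freedom, and Benjamini-Hochberg adjusted p-values, 1 family per comparison, were called at 0.05. The script was tested on simulated data. Tables, promoter searches and figures used pandas 2.3.3, matplotlib 3.10.9 and numpy 2.4.6 on Python 3.11.15. Promoter windows are RefSeq's on GRCm38.p6.

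The members and gene lists were chosen with earlier results of these data known, so comparisons with WT ND are not tested for the members. The other lists were tested in these comparisons, and their p-values there carry the same limit. List counts at an unadjusted p under 0.05 have no background beside them, because the share of all genes at that level was not counted. The named genes are the members, the passing genes of each list (up to 6 by size) and up to 2 that did not pass, the 6 genes most and 3 least correlated with Idh2, and Ffar4. Genes given for their ordering in WT ND (Suclg2, Sdhc, Nnt, Man2a2 and slow fibre genes that did not pass) were chosen after their values were seen.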

Additional observations from a re-analysis of the deposited data

Results flagged for a closer look

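Me3 stood out because its diet groups were fully apart in opposite directions in the knockout and in wild type. The log2 difference was -0.62 for KO HFD against KO ND and 0.36 for WT HFD against WT ND. The difference between these effects was not tested, since WT ND values guided the choice of the genes.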

How the results depend on the processing

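No paired analysis was possible because the mouse numbers of the groups cover separate ranges. Of 434 values that alternatives gave for the tested differences of the 9 genes, 401 kept their direction and side of the threshold, 32 turned sign with neither value past it, and 1 (Me3 without KO ND replicate 2) lost its call. The difference of Me3 in KO HFD against KO ND ranged from -0.73 to -0.57 over the alternatives, with limma adjusted p from 0.00316 to 0.0540.

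Signs turned in KO HFD against KO ND for Cs (0.00051, array weights), for Idh2 (-0.039), Suclg1 (-0.016) and Fh1 (-0.052) under median centring, for Idh3a (0.048 with probe sets averaged, 0.011 with the 3′ over 5′ ratio as covariate, 0.035 and 0.33 on other probe sets) and for Idh3b (0.085 averaged, 0.22 and 0.17 on other probe sets). In KO HFD against WT HFD they turned under quantile normalization for Idh2 (0.031), Idh3a (0.073) and Fh1 (0.051), under array weights for Idh3a (0.024) and Fh1 (0.012), for Idh3a also averaged (0.013) and on another probe set (0.18), and for Idh3b averaged (0.14) and on other probe sets (0.073 and 0.47). With each mouse left out in turn, the ranges in KO HFD against KO ND were -0.052 to 0.065 for Cs, -0.083 to 0.049 for Idh3a and -0.36 to 0.077 for Idh3b. Those in KO HFD against WT HFD were -0.087 to 0.086 for Idh2, -0.077 to 0.11 for Idh3a, -0.33 to 0.032 for Idh3b and -0.070 to 0.020 for Fh1.

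Of the 9 genes, those with the low WT ND ordering numbered 1 under median centring, 3 with probe sets averaged and 5 to 6 with each mouse left out. The Idh2 difference was 0.61 with probe sets averaged and 0.87 to 0.98 with each mouse left out. Members called between KO HFD and KO ND numbered 0 to 1. Other cycle genes called in WT HFD against WT ND (2) numbered 0 with no filter, median centring, no intensity trend, the 3′ over 5′ covariate or only the groups compared, and 0 to 4 with each mouse left out.

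Over all genes, KO HFD against KO ND (515 calls) gave 232 with no trend, 881 with array weights, 265 with the covariate and 133 to 556 with mice left out. KO HFD against WT HFD (83) gave 144 with an offset at the 50th percentile, 41 under median centring, 7 with no trend, 29 with only the groups compared and 15 to 237. WT HFD against WT ND (687) gave 448 under centring, 311 with no trend, 186 with the covariate, 383 with only the groups compared and 199 to 918. KO ND against WT ND (47) gave 22 under centring, 26 averaged, 19 with no trend, 90 with array weights, 25 with the covariate and 9 to 68. The interaction (16) gave 10 under quantile normalization, 7 under centring, 10 averaged, 1 with no trend and 4 to 31. Centring moved the share of higher calls to 24.0% in KO HFD against KO ND (58.6% as deposited), to 56.1% in KO HFD against WT HFD (69.9%), to 32.1% in WT HFD against WT ND (50.7%) and to 85.7% in the interaction (56.2%). The cause of these changes was not tested.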
